A study of Homo sapiens with 24 samples.

Results

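The metallothioneins are small cysteine-rich proteins that bind zinc and copper in the cytoplasm. Their genes lie together on chromosome 16, and zinc raises their transcription through MTF1, a zinc-sensing transcription factor that binds metal response elements (MREs) in their promoters. MTF1 also drives SLC30A1, which encodes the plasma membrane exporter ZnT1, so that these transcripts are widely read as a report of the zinc available to a cell. Glucocorticoids and oxidative stress can raise metallothionein transcripts as well. The genes examined were 10 by symbol: MT1A, MT1E, MT1F, MT1G, MT1H, MT1M, MT1X and MT2A, with MTF1 and SLC30A1. Of these 10, 6 had a row among the 18889 genes of the deposited table, and MT1A, MT1G, MT1H and MT1M were not analysed here.

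RNA-Seq was run on 24 cultures of 3 estrogen receptor-positive human breast cancer lines (ZR-75-30, HCC1500 and MDA-MB-175). Cells of each line were held for 48 hours in serum-free medium with 5 mM glucose (low glucose, LG, the control condition) or 25 mM glucose (high glucose, HG, modelling hyperglycemia), with 4 cultures in each of the 6 groups and no osmotic control among them. The labels number the cultures of a group but do not say whether they were grown independently, so the p-values below measure only the spread between these samples, which may be technical. Values are reads divided by the authors' factor for each sample, called normalized reads below, and the detection floor, set at 3 reads, lay between 0.95 and 2.29 normalized reads depending on the sample. Recovered reads per sample ran from 9140024 to 17998819, and in HCC1500 the HG samples (at most 12140912) were all shallower than the LG samples (at least 13190982). The values are shares of a culture's RNA, in which fewer cells expressing a gene and less of its RNA per cell cannot be told apart.

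All 7 luminal epithelial markers examined were present in every culture, among them ESR1, the estrogen receptor, at 255 normalized reads or more, and KRT8, a luminal keratin, at 5274 or more. TXNIP, a gene induced by glucose, was higher at HG in all 3 lines, with log2 changes of 0.76 in ZR-75-30, 1.02 in HCC1500 (0.99 without the library described next) and 0.39 in MDA-MB-175. One library stood apart. HCC1500 HG replicate 3 had a mean Pearson correlation of 0.914 with the other HG cultures of its line, across genes with a mean of at least 10 normalized reads, where each of those had 0.965 or 0.966. The HCC1500 results are therefore given with and without it.

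The 4 measured metallothionein genes sit within 16q13 on the plus strand, at chr16:56608584-56609497 (MT2A), chr16:56625781-56627112 (MT1E), chr16:56657959-56659303 (MT1F) and chr16:56682470-56684196 (MT1X) in GRCh38.p14. MTF1 (chr1:37809574-37859592) and SLC30A1 (chr1:211571568-211579161) lie on the minus strand of chromosome 1. Promoter sequence from RefSeq was held for 5 of the 10 genes (MT1H, MT1X, MT2A, MTF1 and SLC30A1, and not MT1A, MT1E, MT1F, MT1G or MT1M). The 250 bases before the start site were searched on both strands for the 7-base MRE core, TGCGCNC or TGCACNC. They are shown for the most abundant metallothionein, for the other one with a sequence that fell in ZR-75-30, and for the exporter, 5′ to 3′ on the gene's strand with each MRE core in capitals. A core on the opposite strand reads as its reverse complement, and no core overlapped another. MT2A covers chr16:56608334-56608583 (plus strand), MT1X chr16:56682220-56682469 (plus strand) and SLC30A1 chr1:211579162-211579411 (minus strand).
MT2A: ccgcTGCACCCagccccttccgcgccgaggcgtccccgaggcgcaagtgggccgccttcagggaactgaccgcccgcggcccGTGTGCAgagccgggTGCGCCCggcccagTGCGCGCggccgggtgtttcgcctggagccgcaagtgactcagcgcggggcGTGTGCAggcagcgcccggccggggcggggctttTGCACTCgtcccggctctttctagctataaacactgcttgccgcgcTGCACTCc
MT1X: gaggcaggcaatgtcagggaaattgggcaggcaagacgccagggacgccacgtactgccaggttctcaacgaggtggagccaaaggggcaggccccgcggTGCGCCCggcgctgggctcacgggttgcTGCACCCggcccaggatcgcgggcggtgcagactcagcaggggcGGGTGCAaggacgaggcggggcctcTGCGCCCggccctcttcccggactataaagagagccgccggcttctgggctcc
SLC30A1: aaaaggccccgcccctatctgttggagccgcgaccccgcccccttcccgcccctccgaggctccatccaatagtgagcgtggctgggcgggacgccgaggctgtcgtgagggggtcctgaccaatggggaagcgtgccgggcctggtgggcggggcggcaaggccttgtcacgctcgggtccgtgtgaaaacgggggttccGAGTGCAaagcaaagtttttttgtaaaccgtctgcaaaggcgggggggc

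MT2A held 7 cores in this window, 5 on its own strand and 2 on the opposite one, and the core nearest the start ended 2 bases before it. Only 11 of the 35116 promoters in the RefSeq table, 0.0313%, held 7 or more. MT1X held 4, a number that 0.37% of promoters reached. SLC30A1 held a single core on the opposite strand, 43 to 49 bases before the start, and 24.8% of all promoters held at least 1. The MTF1 window held none, and that of MT1H, which was not measured, held 8. These matches describe the letters of the windows and do not show binding.

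In LG, ZR-75-30 stood far above the other lines in metallothionein RNA. The summed value of MT2A, MT1X, MT1E and MT1F was 1614 ± 110 normalized reads (SD, n = 4) in ZR-75-30, against 146 ± 15.7 in MDA-MB-175 and 206 ± 3.28 in HCC1500. MT2A, the main human isoform, was at 1452 ± 99.3 in ZR-75-30, 157 ± 3.28 in HCC1500 and 133 ± 15.98 in MDA-MB-175. It made up 89.9% ± 0.565 of the sum in ZR-75-30, 91.3% ± 2.77 in MDA-MB-175 and 76.0% ± 0.884 in HCC1500, the 4 cultures of the last line lying below all others at LG. Because the metallothionein genes are near-identical copies, reads may be shared between them, and since the counting of multimapping reads is not given in the sources used here, the split between isoforms is less certain than the sum.

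All 6 genes were higher in ZR-75-30 than in MDA-MB-175 at LG by limma's moderated test (adjusted p under 0.05, where 24.3% of all genes were called higher and 63.8% were called in either direction). The log2 differences were 3.44 ± 0.239 (SE) for MT2A, 4.05 ± 0.331 for MT1X and 3.31 ± 0.349 for MT1E. The remaining differences were smaller, 1.35 for MT1F, 1.23 for MTF1 and 0.45 for SLC30A1 (adjusted p = 9.475e-06). That last call was lost when the values were rescaled to CPM (counts scaled to 1 fixed total per library), to 0.21 with an adjusted p of 0.105. The median of all genes between these lines was -0.18 on the deposited scale and -0.29 as CPM, and it was 0.23 and 0.43 between HCC1500 and ZR-75-30.

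HCC1500 had its own composition. At LG 4 of the 6 genes were higher in it than in MDA-MB-175, against 37.9% of all genes called higher and 72.6% called in either direction. MT1F, an isoform close to the floor in MDA-MB-175 (1 to 6 reads per LG culture), was at 28.8 ± 1.195 normalized reads in HCC1500 and 6.26 ± 2.34 in ZR-75-30. Its log2 difference between HCC1500 and MDA-MB-175 was 3.45 ± 0.367 (adjusted p = 1.648e-08), and between HCC1500 and ZR-75-30 it was 2.10 ± 0.367 (adjusted p = 2.202e-05). MT1F therefore ran in the opposite order to MT2A, MT1X and MT1E, which were lower in HCC1500 than in ZR-75-30 by log2 differences of -3.20, -2.40 and -3.86. Of the 6 genes, 5 differed between these 2 lines, 2 higher and 3 lower in HCC1500, where 73% of all genes were called, 44% higher and 29% lower.

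MTF1 and SLC30A1 followed a different order from MT2A. At LG, MTF1 was at 151 ± 7.94 normalized reads in HCC1500, 108 ± 6.25 in ZR-75-30 and 45.55 ± 2.50 in MDA-MB-175. SLC30A1 had the same order, at 719 ± 20.4, 476 ± 32.4 and 349 ± 21.1. HCC1500 thus had the highest mean for the zinc sensor and the exporter, while ZR-75-30 had the highest for MT2A. For MTF1 the step from ZR-75-30 to HCC1500 (log2 0.47) was not called in the main fit of all 24 samples (adjusted p = 0.158). It was called without HCC1500 HG replicate 3 (adjusted p = 0.000117), and on all 24 with array weights (0.0001671) or as CPM (log2 0.79, 0.0308). MT2A between HCC1500 and MDA-MB-175 (log2 0.24) likewise went from an adjusted p of 0.372 to 0.00711 without that library. On all 24 samples MT2A was called with array weights (0.0173) and with the length trend removed (log2 0.69, adjusted p = 2.895e-05). That library is not in these LG groups, and leaving it out kept both log2 differences while their SE fell.

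Per kilobase of the canonical transcript, the LG level of MT2A was 3621 normalized reads in ZR-75-30, against 227 for MT1X, 86.1 for MT1E and 14.7 for MT1F. In the same cultures SLC30A1 was at 80.7 and MTF1 at 13.7 per kilobase. The order was otherwise in HCC1500, where MT2A was at 391 per kilobase, SLC30A1 at 122, MT1F at 67.7, MT1X at 41.3, MTF1 at 18.98 and MT1E at 5.38. In MDA-MB-175 MT2A was at 332 and SLC30A1 at 59.2, with the other 4 genes at 12.4 or less.

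**Figure D1:**
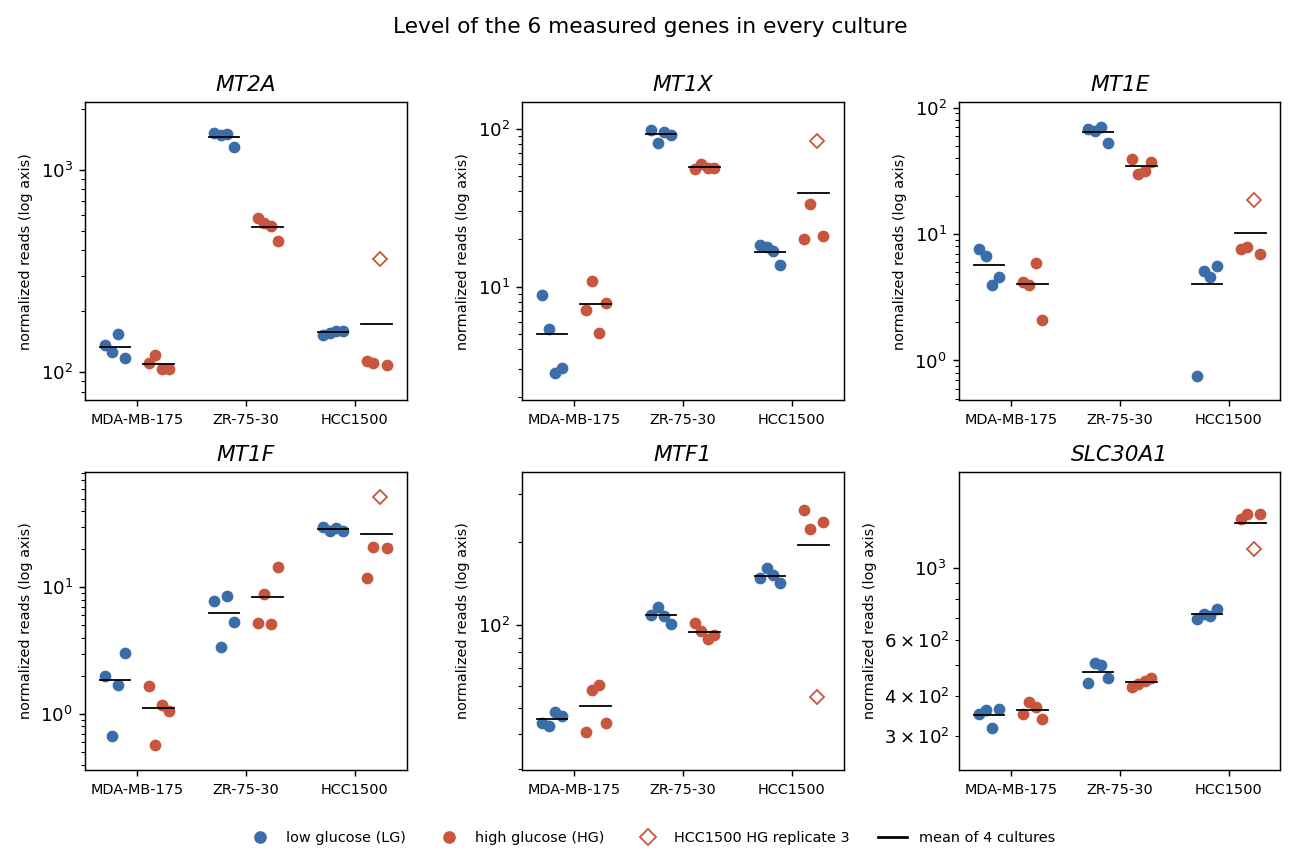
Normalized reads (log axis) of the 6 measured genes in each of the 24 cultures, by cell line, with low glucose in blue, high glucose in red and the mean of 4 cultures as a black line. MT2A, MT1X and MT1E are highest in ZR-75-30 and lower there at high glucose in every culture, while MT1F, MTF1 and SLC30A1 are highest in HCC1500, and HCC1500 HG replicate 3 (open diamond) lies apart from the other 3 HG cultures.

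In ZR-75-30, high glucose was accompanied by a fall of the 3 abundant metallothioneins and by no called change of MTF1 or SLC30A1. MT2A was at 1515, 1481, 1508 and 1305 normalized reads in the LG cultures and at 581, 544, 530 and 443 in the HG cultures. Every HG culture was therefore below every LG culture, and the highest HG value was under the lowest LG value by more than the range within either group. The mean fell from 1452 ± 99.3 to 524.5 ± 58.5 (SD, n = 4 each), a log2 change of -1.47 ± 0.067 (SE, adjusted p = 5.486e-12), against a median of 0.01 over all genes tested.

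MT1X was at 98.6, 81.3, 95.7 and 91.6 normalized reads in LG and at 55.2, 60.1, 56.5 and 56.2 in HG, a log2 change of -0.68 ± 0.1 (adjusted p = 2.015e-05). MT1E was at 68.1, 65.4, 70.6 and 52.7 in LG and at 39.1, 29.7, 31.5 and 37.01 in HG, a log2 change of -0.89 ± 0.139 (adjusted p = 3.738e-05). Neither isoform had overlapping groups. Thus limma called 3 of the 6 genes, which also did not overlap, all of them lower at HG. In a single fit of all 24 samples the calls of MT1E (adjusted p = 0.0636) and MT1X (adjusted p = 0.142) were lost and that of MT2A was not. Of all genes tested in this line, 46% were called (23.4% of the tested genes higher and 22.7% lower) and 42% had no overlap, so the share of members called in either direction was near the background.

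MT1F did not move with the other isoforms in ZR-75-30. It was at 3.41 to 8.55 normalized reads in LG and 5.10 to 14.4 in HG, on 6 to 21 reads per culture, and its log2 change was 0.32 (adjusted p = 0.477). MTF1 was at 108 ± 6.25 in LG and 94.5 ± 5.32 in HG, with a log2 change of -0.20 and an adjusted p of 0.0664. It passed the threshold in 7 of 22 alternative settings, edgeR among them (adjusted p = 0.0460). SLC30A1 was at 440 to 507 in LG and 429 to 455 in HG, a log2 change of -0.10 (adjusted p = 0.107), and passed in 3 of 22.

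The summed metallothionein value of ZR-75-30 went from 1454 to 1689 in the LG cultures to 550 to 680 in the HG cultures. The share of MT2A in it was 89.9% ± 0.565 at LG and 83.9% ± 2.31 at HG, and the highest HG share, 85.4%, was below the lowest LG share, 89.6%. Other measures moved in the same cultures. The summed level of the 7 luminal markers was 48980 to 53630 in LG and 34880 to 40740 in HG, with 5 markers lower and 1 higher. Of the 4 immune markers the 2 with a row, CD68 and CD14, summed to 5.54 to 6.82 in LG and 33.6 to 43.9 in HG. Nearly all of this came from CD68, which macrophages express. CD14 did not rise with it, at a mean of 0.520 normalized reads in LG and 0.521 in HG, below the floor. PTPRC and CD3E, which define leukocytes and T cells, were not analysed here. The fibroblast marker sum was 100 to 116 in LG and 78.1 to 97.3 in HG, nearly all from COL1A1. In this line COL1A2 was at most 0.554 normalized reads, PDGFRB at most 1.108 and DCN at 0. The part of these markers in the metallothionein result was not tested.

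**Figure D2:**
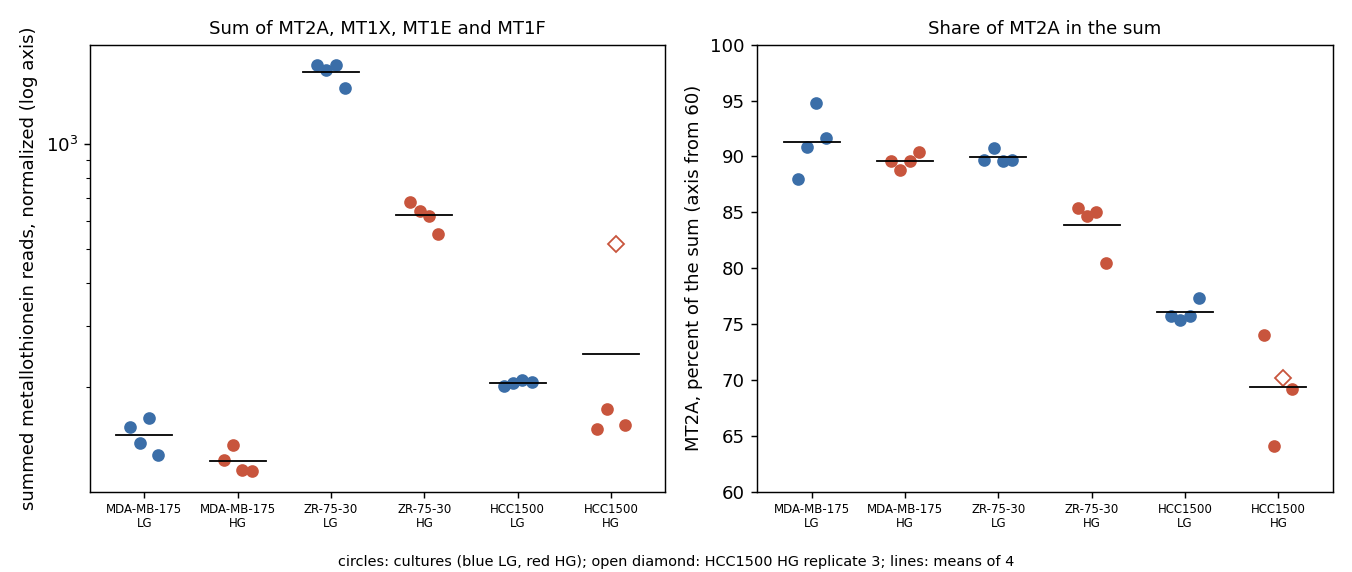
Left, the sum of MT2A, MT1X, MT1E and MT1F in normalized reads (log axis), and right, the percent of that sum from MT2A (axis from 60), for each culture, with means of 4 as black lines. The sum is lower in all 4 high-glucose cultures of ZR-75-30 (550 to 680) than in its low-glucose cultures (1454 to 1689), and the MT2A share is lowest in HCC1500.

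In MDA-MB-175 only MT2A was called, with a small fall. MT2A was at 136, 126, 154 and 117 normalized reads in LG and at 111, 121, 104 and 104 in HG, so that the groups overlapped. Its log2 change of -0.27 ± 0.091 gave an adjusted p of 0.0392, and this call was lost when any of LG replicates 1 and 3 or HG replicates 1, 3 and 4 was left out (adjusted p up to 0.138). That made 1 of the 6 genes called, where 25.7% of all genes were called, 11.9% higher and 13.7% lower. None of the 6 had groups without overlap, against 26.6% of all genes. Markers moved in this line as well. The CD68 and CD14 sum was 2.01 to 5.69 in LG and 5.08 to 12.5 in HG, with CD68 called higher (log2 1.18, adjusted p = 0.0288). VWF, an endothelial marker, was at 43.2 to 55.6 and 32.1 to 39.2, and the luminal sum at 47780 to 58040 and 51860 to 56860. Of the 7 luminal markers, 1 was called higher and 3 lower, among them ESR1 (log2 -0.38, adjusted p = 2.674e-05). The part of these markers in the MDA-MB-175 result was not tested.

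SLC30A1 was at 318 to 364 normalized reads in LG and 340 to 385 in HG in MDA-MB-175 (log2 0.05 ± 0.058, adjusted p = 0.553), and MTF1 at 42.9 to 48.4 and 40.8 to 60.5 (log2 0.14, adjusted p = 0.515). MT1X, on 5 to 22 reads per culture, was at 5.02 ± 2.78 in LG and 7.71 ± 2.37 in HG (adjusted p = 0.200). MT1E, on 4 to 19 reads per culture, was at 5.72 ± 1.72 and 4.02 ± 1.54 (adjusted p = 0.333). MT1F had 1 to 6 reads per culture and was at or near the floor in both conditions.

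In HCC1500 the exporter rose. SLC30A1 was at 697, 721, 712 and 745 normalized reads in the LG cultures and at 1422, 1477, 1147 and 1479 in the HG cultures, all of these above every LG value. The mean went from 719 ± 20.4 to 1381 ± 159, a 1.92-fold difference and a log2 change of 0.93 ± 0.097 (adjusted p = 0.000396), against a median of -0.06 over all genes. It was the only member called by limma on all 8 samples, where 20.5% of all genes were called, 7.46% higher and 13% lower. DESeq2 on the same samples also called MT1X and MT1E, and array weights called 5 members. Without HG replicate 3, the lowest HG culture, the log2 change was 1.02 ± 0.033 (adjusted p = 2.012e-14), and in all 25 alternative settings it lay between 0.86 and 1.14. In the same cultures the CD68 and CD14 sum was 1.72 to 3.80 in LG and 10.03 to 28.2 in HG, where CD14, a monocyte marker, rose (log2 2.51, adjusted p = 0.00497, and 2.20 without replicate 3). The luminal sum was 24220 to 25960 in LG and 24010 to 45590 in HG, with the highest value in replicate 3. No luminal marker was called with all samples, and without replicate 3 there were 3 called higher and 4 lower. In that fit KRT8 averaged 5623 normalized reads in LG and 6205 in HG, KRT18 3065 and 2533, and KRT19 5693 and 4895. The part of these markers in the HCC1500 results was not tested.

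The metallothioneins of HCC1500 depended on HG replicate 3. MT2A was at 153, 155, 159 and 160 normalized reads in LG and at 113, 111, 362 and 108 in HG. The LG cultures were thus close together, 3 HG cultures were below them, and replicate 3 was far above. With all 8 samples MT2A gave a log2 change of -0.08 (adjusted p = 0.912), which turned to 0.10 in edgeR and 0.13 in DESeq2. Without that library the HG mean was 110.5 ± 2.36 (SD, n = 3) and the log2 change -0.50 ± 0.063 (adjusted p = 1.739e-06).

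MTF1 was the mirror image, at 148, 161, 152 and 142 normalized reads in LG and at 263, 223, 55.0 and 238 in HG. In 3 HG cultures it was above every LG culture, and in replicate 3 it was below all of them. The log2 change was 0.15 (adjusted p = 0.858) with all samples and 0.68 ± 0.066 (adjusted p = 6.844e-08) without replicate 3, when the HG mean was 241 ± 20.1.

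The minor isoforms split. MT1X was at 13.8 to 18.2 normalized reads in LG and at 20.1, 33.3, 83.2 and 20.8 in HG, and MT1E at 0.760 to 5.60 in LG and at 7.67, 7.96, 18.6 and 6.92 in HG. Neither was called by limma on the 8 samples (log2 0.95 with adjusted p = 0.143, and 1.23 with adjusted p = 0.107), although their groups did not overlap. Both were called by DESeq2 on the same samples (adjusted p = 0.0135 and 0.0391) and in the 24-sample limma fit (adjusted p = 0.0312 and 0.00886). MT1F was at 27.6 to 30.0 in LG and at 11.8, 20.9, 52.0 and 20.3 in HG, so that it lay below LG in the 3 cultures other than replicate 3. Without replicate 3 the log2 changes were 0.51 for MT1X (adjusted p = 0.0352), 0.93 for MT1E (adjusted p = 0.0497) and -0.71 for MT1F (adjusted p = 0.00344). The MT1E change rests on few reads, 2 to 16 per LG culture, and it was the 1 member not called by edgeR without replicate 3.

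Counted over members, 3 of 6 had no overlap in HCC1500 with all samples, all higher at HG, against 32.4% of all genes in either direction and 13.7% higher. Without HG replicate 3 all 6 were called and had no overlap, 4 higher (SLC30A1, MTF1, MT1X and MT1E) and 2 lower (MT2A and MT1F). In that fit 58.5% of all genes were called, 20.9% higher and 37.7% lower, and 58.1% had no overlap. The summed metallothionein value was 202 to 210 in LG and 152, 173 and 156 in the 3 remaining HG cultures, against 516 in replicate 3.

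The deviation of HG replicate 3 ran along transcript length. Relative to the other 3 HG cultures, genes with canonical transcripts under 800 bases had a median log2 deviation of 1.25 (589 genes with a mean of at least 10 normalized reads, 86.2% above 0), and genes of 5000 bases or more had one of -0.48 (3263 genes, 22% above 0). The metallothionein transcripts are 401 to 746 bases long, and their deviations were 1.70 for MT2A, 1.75 for MT1X, 1.55 for MT1F and 1.20 for MT1E. MTF1, at 7937 bases, deviated by -2.11, well beyond the median of its length class, and SLC30A1, at 5893 bases, by -0.35. These deviations are on the deposited scale, on which replicate 3 summed to 7319781 and the other HG cultures to 5559394, 5578758 and 5604083. When a smooth trend with length was removed from each sample of all 8, MT1X, MT1E and SLC30A1 were called higher and MT2A was at -0.19 (adjusted p = 0.436).

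**Figure D3:**
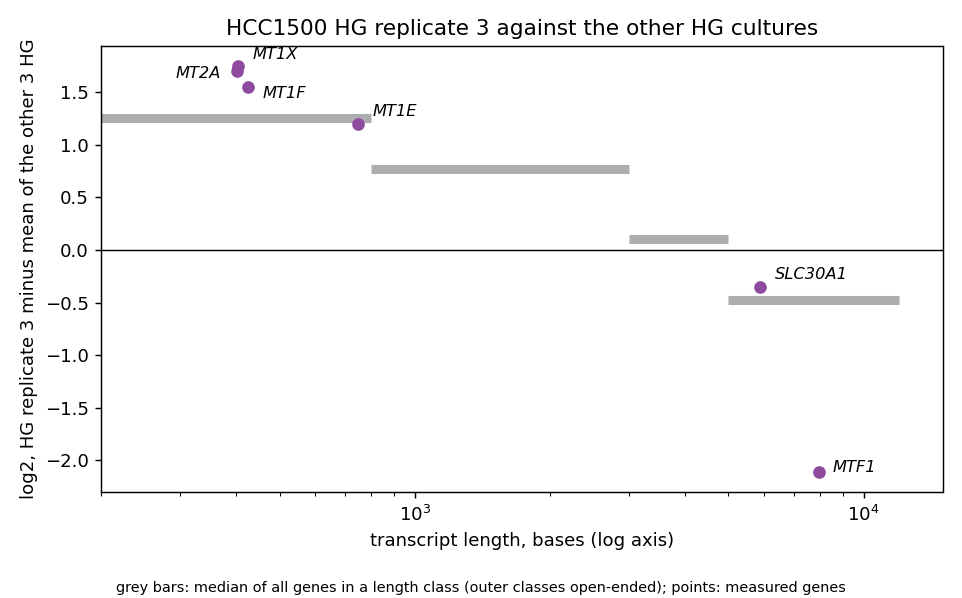
Log2 difference of HCC1500 HG replicate 3 from the mean of the other 3 high-glucose cultures against transcript length in bases (log axis), with grey bars for the median of all genes in a length class and points for the 6 genes. The short metallothionein transcripts lie at 1.20 to 1.75 and the long MTF1 and SLC30A1 transcripts at -2.11 and -0.35.

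Whether the response to glucose differed between lines was tested in 1 model over all 24 samples. The F test called 4 of the 6 genes, SLC30A1 (adjusted p = 1.254e-07), MT1E (0.00482), MT2A (0.00533) and MT1X (0.0232), where 29.3% of all genes were called. Without HCC1500 HG replicate 3 it also called MTF1 (adjusted p = 8.902e-05, against 0.767 with it), and 48.6% of all genes were called. MT1F was not called either way (adjusted p = 0.496 and 0.142).

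By pairs of lines, the MT2A change of ZR-75-30 was lower than that of MDA-MB-175 by a log2 difference of -1.20 ± 0.338 (adjusted p = 0.0231). It was the only member called in that pair with all samples, where 11.2% of all genes were called. The MT1X difference there was -1.27 (adjusted p = 0.0873), which was called without HCC1500 HG replicate 3 (adjusted p = 0.00618). HCC1500 differed from ZR-75-30 in MT2A by 1.40, which was 0.97 without HG replicate 3 (adjusted p = 3.212e-07). The MT2A change was thus lower in ZR-75-30 than in either other line. Between HCC1500 and MDA-MB-175 its changes differed by 0.19 (adjusted p = 0.758), or by -0.23 without replicate 3 (adjusted p = 0.136).

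The SLC30A1 rise of HCC1500 exceeded the change in MDA-MB-175 by 0.88 ± 0.101 (adjusted p = 1.679e-06) and that in ZR-75-30 by 1.04 ± 0.101 (adjusted p = 1.156e-07). The MT1X and MT1E changes of HCC1500 were above those of ZR-75-30 by 1.62 and 2.12, which were 1.19 and 1.82 without replicate 3 (adjusted p = 0.00834 and 0.00252). Of the 6 genes, 4 were called between these 2 lines, where 25.2% of all genes were, and 2 between HCC1500 and MDA-MB-175, where 17.7% were. MT2A fell in ZR-75-30, where SLC30A1 was not called, and without replicate 3 it fell in HCC1500, where SLC30A1 rose.

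**Figure D4:**
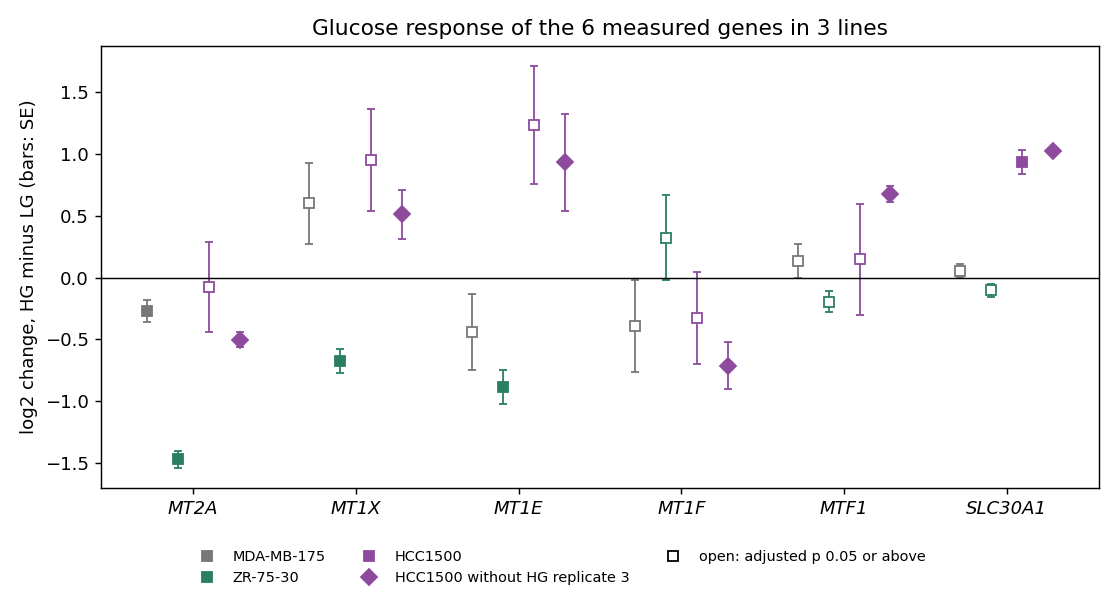
Log2 change from low to high glucose with its standard error for the 6 genes in each line, and in HCC1500 without HG replicate 3 (diamonds), with filled symbols for an adjusted p under 0.05. MT2A is at -1.47 in ZR-75-30 and SLC30A1 at 0.93 in HCC1500, and the HCC1500 values of MT2A and MTF1 shift from -0.08 to -0.50 and from 0.15 to 0.68 without that library.

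Other genes of zinc handling and its surroundings were taken from lists, whose counts stand beside the shares of all genes called, 11.9% higher and 13.7% lower in MDA-MB-175, 23.4% and 22.7% in ZR-75-30, 7.46% and 13% in HCC1500, and 20.9% and 37.7% in HCC1500 without replicate 3. No list was tested against those shares. Of the other zinc exporters (SLC30 family and TMEM163), 8 were tested in HCC1500, 7 in ZR-75-30 and 8 in MDA-MB-175. None was called in MDA-MB-175. In ZR-75-30 4 fell, led by SLC30A7, a transporter into the secretory pathway, at 140 normalized reads in LG and 97.7 in HG (log2 -0.51, adjusted p = 1.336e-05). In HCC1500 SLC30A4 fell (log2 -0.55, adjusted p = 0.0346, and -0.46 without HG replicate 3), and no other exporter was called higher there with all samples, while without HG replicate 3 SLC30A7 was (log2 0.22, adjusted p = 0.00427).

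Several zinc importers of the SLC39 (ZIP) family changed. Of 12 tested, 6 fell and none rose in MDA-MB-175, and 6 fell and 1 rose in ZR-75-30. In HCC1500 3 rose and 2 fell of 11 tested, and 4 rose and 4 fell without replicate 3. The list medians were -0.19, -0.13 and 0.17, beside -0.02, 0.01 and -0.06 for all genes, and the HCC1500 median turned to -0.10 without replicate 3, beside -0.12 for all genes. SLC39A8 (ZIP8, which carries zinc and manganese) fell in all 3 lines, by log2 changes of -0.41 (MDA-MB-175), -0.83 (ZR-75-30) and -0.38 (HCC1500, or -0.45 without replicate 3). SLC39A11 (ZIP11) also did, by -0.34, -0.59 and -0.66 (or -0.81) in the same order.

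A few further importers were chosen after their values were seen. SLC39A10, a plasma membrane importer that MTF1 represses, rose in ZR-75-30 from 172 to 247 normalized reads (log2 0.52, adjusted p = 1.798e-06). It fell in MDA-MB-175 (log2 -0.18, adjusted p = 0.0312). In HCC1500 its log2 change was -0.46 (adjusted p = 0.0747), or -0.31 without replicate 3 (adjusted p = 0.00233). MT2A was called lower in ZR-75-30, in MDA-MB-175 (a call lost in 9 of 22 alternative settings) and in HCC1500 without replicate 3. SLC39A6 (LIV-1), an estrogen-regulated importer, was at 8466 normalized reads in HCC1500 at LG, against 1663 in MDA-MB-175 and 901 in ZR-75-30, and rose to 13060 in HCC1500 (log2 0.62, adjusted p = 0.00483, and 0.71 without replicate 3). SLC39A14, a zinc and iron importer, also rose in HCC1500 (log2 0.59, adjusted p = 0.0225, and 0.74 without replicate 3). A link of these importers with the metallothioneins, MTF1 or SLC30A1 was not tested.

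**Figure D5:**
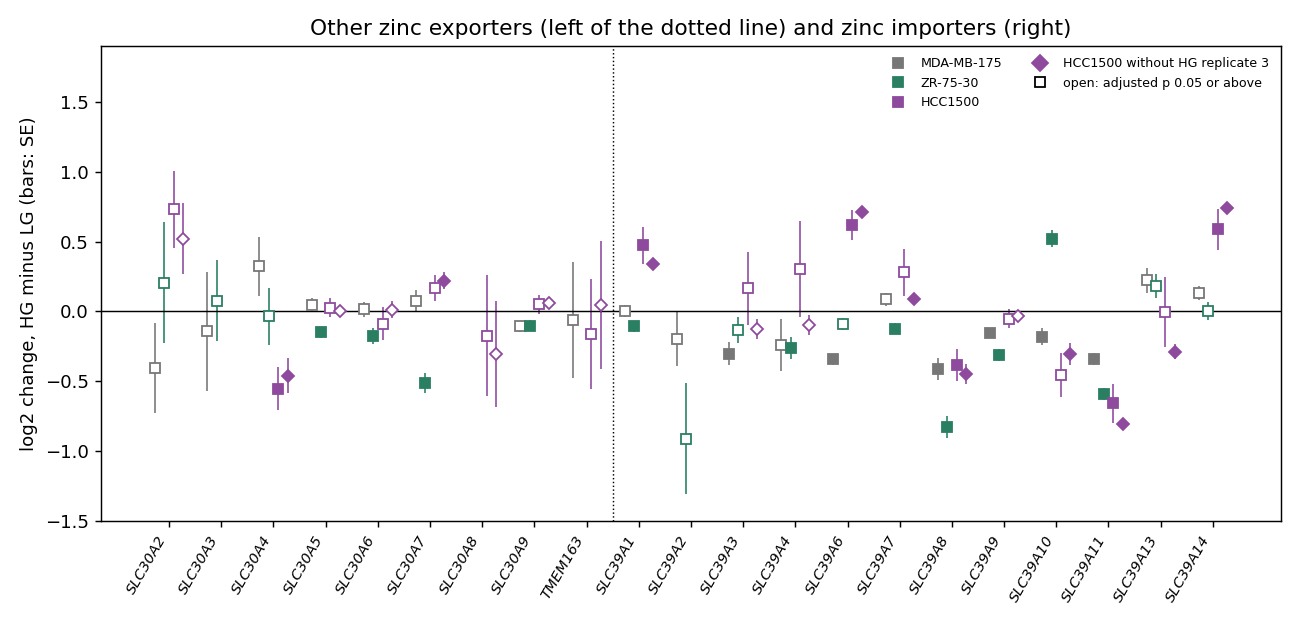
Log2 change from low to high glucose with its standard error for the other zinc exporters (left of the dotted line) and the zinc importers (right) in each line, with filled symbols for an adjusted p under 0.05. SLC39A8 and SLC39A11 are below 0 and filled in all 3 lines, and SLC39A10 is at 0.52 in ZR-75-30 and below 0 in the other lines.

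Genes linked to MTF1 in other settings (SLC39A10, PGF, SLC40A1 and GCLC) gave 2 higher and 2 lower of 4 in MDA-MB-175, 1 and 1 of 3 in ZR-75-30, and none called of 4 in HCC1500 by limma, or 1 and 2 without replicate 3. The list includes SLC39A10, which MTF1 represses and which is also counted among the importers, so its directions are not read together. PGF, called higher in MDA-MB-175, averaged 0.728 normalized reads in LG, below the floor, and 3.91 in HG, with overlapping groups. Of 15 genes of copper handling, 1 rose and 2 fell in MDA-MB-175, 3 rose and 3 fell in ZR-75-30, and 2 fell in HCC1500, with 4 and 5 without replicate 3. ATP7B, a copper-exporting ATPase, fell in all 3 lines (log2 -0.27, -0.54 and -0.68), the HCC1500 call lying at an adjusted p of 0.04997 and its log2 change being -0.45 without replicate 3 (adjusted p = 8.608e-07). The metallothioneins also bind copper, and MT1L, a metallothionein pseudogene, was listed at 0 in all 24 samples.

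Some oxidative stress genes rose in every line, and some heat stress genes were called higher in MDA-MB-175 and HCC1500 but none in ZR-75-30. Of 12 rows tested in each line (SRXN1 has 2 gene IDs), 10 rose and none fell in MDA-MB-175, 4 rose and 2 fell in ZR-75-30, and 6 rose and none fell in HCC1500, or 8 and 2 without replicate 3. HMOX1, heme oxygenase, rose in all 3 lines with log2 changes of 1.36, 0.88 and 1.93 (1.67 in HCC1500 without replicate 3). GCLM, a subunit of the enzyme that limits glutathione synthesis, rose by 0.76, 0.43 and 0.56 (0.53), and TXNRD1, thioredoxin reductase, by 1.15, 0.28 and 0.39 (0.48), with the HCC1500 value without replicate 3 in parentheses. In ZR-75-30 the 4 rises were HMOX1, GCLM, TXNRD1 and 1 ID of SRXN1, and the 2 falls were the heat shock gene DNAJB1 (log2 -0.34) and the cystine transporter gene SLC7A11 (log2 -0.97). With all HCC1500 samples, SLC7A11 and both IDs of SRXN1 were not called. The 2 falls in HCC1500 without replicate 3 were DNAJB1 (log2 -0.22) and the heat stress gene BAG3 (log2 -0.21). In ZR-75-30, HMOX1 was at 143 normalized reads in LG and 264 in HG in the same cultures in which MT2A fell from 1452 to 524.5. A link between these stress genes and the metallothioneins was not tested.

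Of 8 genes tested in the glucocorticoid list, 4 rose and none fell in MDA-MB-175, 5 rose and 2 fell in ZR-75-30, and 4 rose and 1 fell in HCC1500, or 7 and 1 without replicate 3. The rises include NR3C1, which encodes the glucocorticoid receptor itself, in MDA-MB-175 (log2 0.38), in ZR-75-30 (0.44) and in HCC1500 without replicate 3 (0.57). PER1, a clock gene that glucocorticoids induce, rose in all 3 lines (log2 0.70, 1.53 and 0.95, or 0.85 in HCC1500 without replicate 3). FKBP5 and TSC22D3, both induced by glucocorticoids and chosen after their values were seen, were the 2 that fell in ZR-75-30 (log2 -0.995 and -0.276), while FKBP5 fell (log2 -0.86, or -0.85 without replicate 3) and TSC22D3 rose (log2 0.72, or 0.57) in HCC1500.

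The neighbours of the metallothionein cluster on 16q13 moved in both directions. Of 12 tested, 3 rose and 2 fell in MDA-MB-175, 4 rose and 6 fell in ZR-75-30, and 2 rose and 3 fell in HCC1500, with 5 and 5 without replicate 3. HERPUD1, an endoplasmic reticulum stress gene, rose in all 3 lines (log2 0.29, 0.38 and 0.69, or 0.55 in HCC1500 without replicate 3), and FAM192A fell in all 3 (-0.25, -0.53 and -0.50, or -0.63).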

How the data were processed

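The table was deposited as a signal per gene and sample. Per the labels of the submission, the submitters' processing notes name edgeR and hg38, and the aligner, counter and strand setting for these lines are not given in the sources used here. Each deposited signal equals whole reads over a factor shared by its sample (within 0.02 reads), so the read counts were recovered. The plan had assumed CPM-like values, and its test was kept.

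Each line was fitted on its 8 samples with limma 3.58.1 (R 4.3.3) on log2(value + 1), which understates changes of weakly expressed genes, letting the prior variance follow expression level. Genes at 0.5 or more in at least 4 samples were tested, with Benjamini-Hochberg adjustment over all genes and a threshold of 0.05. All 6 measured members passed in the main fits and in the fits without HCC1500 HG replicate 3. In MDA-MB-175, MT1F was tested in 20 alternative settings and MT1E in 21, where the other members had 22. Differences between lines came from a limma fit of 6 group means on all 24 samples. All adjusted p-values are from limma unless edgeR 4.0.16 or DESeq2 1.42.0 is named. Scripts were tested on simulated data.

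Members and lists were chosen with earlier results of these data known. Besides all members, list genes called with 1 sign in all 3 lines were named, at most 4 per list, and a gene selected this way is not reported here. Coordinates and promoters are RefSeq GRCh38.p14, and transcript lengths are those of GENCODE canonical transcripts.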

Additional observations from a re-analysis of the deposited data

Results flagged for a closer look

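Within groups of 4, a culture was marked when its gap to the nearest of the others exceeded Dixon's 95% critical value, which chance does in about 1 in 20 groups, over 36 groups examined. HCC1500 HG replicate 3 was marked for MT2A (362.4 normalized reads), MT1E (18.6) and SLC30A1 (1147), above the other HG cultures in the first 2 and below them in the third. ZR-75-30 LG replicate 4 was marked for MT2A, at 1305 normalized reads against 1481 to 1515 in the other LG cultures, and it still lay above every HG culture.

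The glucose response differed between lines in these cases, as log2 differences from the 24-sample limma fit with adjusted p under 0.05. ZR-75-30 against MDA-MB-175 gave -1.20 for MT2A. HCC1500 against MDA-MB-175 gave 1.67 for MT1E, which rests on few reads in both lines, and 0.88 for SLC30A1. HCC1500 against ZR-75-30 gave 1.40 for MT2A, 1.62 for MT1X, 2.12 for MT1E and 1.04 for SLC30A1. Without HCC1500 HG replicate 3 these HCC1500 differences were 1.37, 0.97, 0.97, 1.19, 1.82 and 1.12 in the same order, each still with an adjusted p under 0.05.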

How the results depend on the processing

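Counts of the 6 members called changed as follows, from 1 in HCC1500, 3 in ZR-75-30 and 1 in MDA-MB-175. Rescaling to CPM gave 5 in ZR-75-30, and edgeR, no variance trend and array weights each gave 4 there. DESeq2 gave 0 in MDA-MB-175 and 3 in HCC1500, no variance trend 0 in MDA-MB-175, array weights 5 in HCC1500, and removal of the length trend 3, 5 and 0 in the first order. A fit of all 24 samples gave 3, 1 (MT2A) and 0, and an adjusted p under 0.01 gave 0 in MDA-MB-175. Leaving out 1 culture gave 1 to 6 in HCC1500 (6 without HG replicate 3), 3 to 4 in ZR-75-30 and 0 to 1 in MDA-MB-175. Leaving out that library together with median-of-ratios scaling, edgeR or CPM, chosen after seeing the data, gave 6, 5 and 6. The cause was not tested.

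The difference in MT1E between HCC1500 and MDA-MB-175 turned from -0.56 at LG (not called) to 1.12 at HG (adjusted p = 0.00664), a contrast of other cultures. Both values rest on few MT1E reads in both lines. Over 1389 comparisons of a member's result with an alternative, 1319 kept their side of the threshold, 57 newly passed it, 12 lost it and 1 reversed. Of the 1319, 7 changed sign without being called, all in HCC1500 with HG replicate 3 included, MT2A (up to 0.125) and MTF1 (down to -0.071). The share of called genes that were higher in HCC1500 was 36.4% as deposited and 49% with median-of-ratios scaling.

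With the replicate block the counts were 1, 3 and 1. Deviations of same-numbered cultures had mean correlations of 0.02, 0.04 and 0.05, and 2, 1 and 1 of 4 pairs were best with their own number, so the number was not taken to pair cultures. Depth limited MT1F in MDA-MB-175 (1 to 6 reads) and in ZR-75-30 (6 to 21), and MT1X in MDA-MB-175 (5 to 22). It also limited MT1E in MDA-MB-175 (7 to 19 reads in LG, 4 to 15 in HG) and in HCC1500 (2 to 16 in LG, 13 to 25 in HG).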

Other observations

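The genes whose log2 level was most like that of the summed metallothioneins over all 24 samples were PSMD1 (Pearson r = 0.977), WDR77, AP2S1, MRFAP1 and NME1 (0.969), among 13304 genes with a mean of at least 10 normalized reads. The 24 points fall into 3 lines, and 185 genes had r of 0.9 or more. Over the 8 cultures of ZR-75-30 the most alike were E2F8 (0.999), CCNF, PMM2, TCTA and IGFBP5, with 1937 of 11969 genes at 0.9 or more. In HCC1500 they were TMEM14C (0.999), KDELR2, FBL, MTX1 and MEA1 (0.997), where HG replicate 3 carries the highest metallothionein sum, and in MDA-MB-175 IL27RA (0.984), NMRAL1, MRPS24, TLE3 and REEP6 (0.968).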
